A study of Mus musculus with 15 samples.

Results

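The 10 genes described here are the core of the mammalian circadian clock: Arntl, Clock, Per1, Per2, Per3, Cry1, Cry2, Nr1d1, Nr1d2 and Dbp. They were taken by name, not by any measured value, though with earlier results of these data known. They are 10 of the 22219 protein-coding gene symbols of the annotation (GENCODE vM1 on mm9). Chromatin immunoprecipitation with sequencing (ChIP-seq) had mapped Myc, RNA polymerase II (RNAPII) and Miz1, a zinc-finger factor also named ZBTB17 that can bind Myc. Myc and RNAPII were followed in 3T9-MycER cells, mouse fibroblasts from E13.5 embryos with c-myc flox/flox alleles, infected with a construct for MycER, a Myc fusion that is held inactive until 4-hydroxytamoxifen (OHT) binds it. OHT was given at 400 nM, and the cells were taken at 10, 20 and 30 min, 2 h and 4 h, beside cells without OHT at 0 min. Miz1 was mapped in the same fibroblasts without activation and in splenic B cells of wild-type C57BL/6 mice of 6 to 8 weeks, isolated with B220 beads. All fibroblast groups, 0 min included, carry MycER and the floxed c-myc alleles. A Myc peak can come from the cells' own Myc or from MycER, and the lists give both as one value.

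In the clock, CLOCK and BMAL1, the product of Arntl, form a pair that binds E-boxes and drives the Per and Cry genes, whose proteins then inhibit that pair. Nr1d1 and Nr1d2 encode the REV-ERB repressors, which act on Arntl through ROR elements, and Dbp encodes an output factor that acts through D-boxes. E-boxes have the core sequence CACGTG, or a near relative of it, which Myc and its partner Max also recognize. The clock runs in most tissues, cultured fibroblasts included.

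There were 15 samples with 1 library in each group, so nothing below carries a test, and a difference between times compares 2 libraries. The 20 peak lists came from 14 samples, since each RNAPII library had a narrow and a broad list. The Myc libraries held 28132063 to 33431447 tags. The shallowest RNAPII library was the one of 0 min (15276996 tags) and the deepest that of 20 min (36396286), while 30 min (16274905) and 4 h (16268203) were near the shallowest. Miz1 had 10164509 tags in fibroblasts and 24237295 in B cells. At 0 min, RNAPII promoter peaks marked 10 of 12 fibroblast marker genes (not Thy1 or Postn), 1 of 10 B cell genes (Ebf1) and 0 of 8 T cell or myeloid genes, in the narrow and in the broad list alike.

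E-boxes in the Myc peaks of the clock genes came first, since Myc and the activating pair of the clock both bind E-boxes. The summit is the base of highest signal in a peak, and distances run from the summit to the centre of the site. The sequences below were read from the mm9 genome in the direction of each gene, with the motif in capitals. They were chosen because they lie at or near a Myc summit or form a cluster inside a Myc peak.
Per1 E-box, chr11:68912258-68912317, plus strand: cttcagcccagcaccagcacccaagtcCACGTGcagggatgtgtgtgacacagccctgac
Nr1d2 E-box nearest the summit, chr14:19071160-19071219, minus strand: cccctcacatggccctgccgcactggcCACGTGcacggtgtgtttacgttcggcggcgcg
Nr1d2 next E-box, chr14:19071057-19071116, minus strand: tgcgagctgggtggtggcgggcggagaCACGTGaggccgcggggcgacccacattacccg
Cry1 E-box, chr10:84647827-84647886, minus strand: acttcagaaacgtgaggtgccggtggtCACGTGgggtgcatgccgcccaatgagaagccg
Dbp first E-box, chr7:52963070-52963099, plus strand: acattccctcgcCACGTGagtccgccttcc
Dbp second E-box, chr7:52963183-52963212, plus strand: agctgtaggccaCACGTGatgcggccctga
Nr1d1 intronic E-box, chr11:98635161-98635220, minus strand: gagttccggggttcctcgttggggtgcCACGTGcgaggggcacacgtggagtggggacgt
Cry2 E-box relative, chr2:92274360-92274419, minus strand: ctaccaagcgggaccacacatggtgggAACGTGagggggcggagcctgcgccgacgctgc
The Nr1d1 stretch also holds, in lower case, the neighbouring E-box of a close pair. AACGTG in Cry2 is CACGTT read on the other strand. The Cry1 stretch holds the same relative in lower case, upstream of its E-box.

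At Per1, which encodes a repressor of the PERIOD family, the E-box shown lies inside the gene, 3568 bp from its 5′ end. That is 162 bp upstream of an annotated transcription start site within Per1, and the Myc summits there lay in an intron. The E-box lay 22 bp from the Myc summit at 0 min, 12 bp at 10 min, 0 bp at 20 min, 2 bp at 30 min, 0 bp at 2 h and 14 bp at 4 h. At Nr1d2 the nearest E-box lay 50, 14, 24, 36, 14 and 2 bp from the summit in the same order of times. The summits of these genes thus lay within 50 bp of a canonical E-box in all 6 Myc lists. At Cry1, a repressor of the CRYPTOCHROME family, the single E-box of the peak lay 164 bp from the summit at 0 min, 168 bp at 10 min, 110 bp at 20 min, 86 bp at 30 min, 126 bp at 2 h and 48 bp at 4 h.

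Dbp was the member whose summit moved. At 0 min it lay 4 bp from the first of the paired E-boxes shown, inside the gene and 2095 bp downstream of the nearest transcription start site (TSS). At the 5 later times it lay upstream of the gene, between -282 and -258 bp from the TSS, and 2884 to 2908 bp from that E-box. The peak itself covered both places in each list, reaching from -1402 to 3551 bp at 0 min and from -1552 to 3569 bp at 4 h, counted from the gene's 5′ end. The E-boxes sit 2626 and 2740 bp from that end. RNAPII had its own narrow-list summit over Dbp at 1758 bp at 0 min, 2606 bp at 10 min, 2547 bp at 20 min, -689 bp at 30 min, 2610 bp at 2 h and 2606 bp at 4 h, all counted from that end. RNAPII signal in this peak was thus highest within Dbp, near the E-boxes, at 10 and 20 min, 2 h and 4 h. The summit of 30 min lay in an intron of Car11, the gene on the same strand that ends 406 bp upstream of Dbp. The broad list of 30 min had a separate peak over Dbp with its summit at 2555 bp.

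Over the fixed window of 200 bp around the summit of the strongest promoter peak, 3 of 9 members with a peak held CACGTG at 0 min (Per1, Nr1d2, Dbp), against 18.8% of all genes that had a Myc peak at the promoter. The 4 h list again gave 3 of 9 (Per1, Cry1, Nr1d2), against 17.5%. Counting CACGCG as well brought 6 of 9 at each time (Per1, Cry1, Cry2, Nr1d1, Nr1d2, Dbp), against 37.9% and 37.0% of genes. The relative CACGTT stood at the summit of 3 of 9 members at 4 h (Cry1, Cry2, Nr1d1), against 6.49% of genes. Clock, Per2 and Per3 had none of these 3 sequences at either summit, and neither strand of CACGTC was found at a member's summit.

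**Figure D1:**
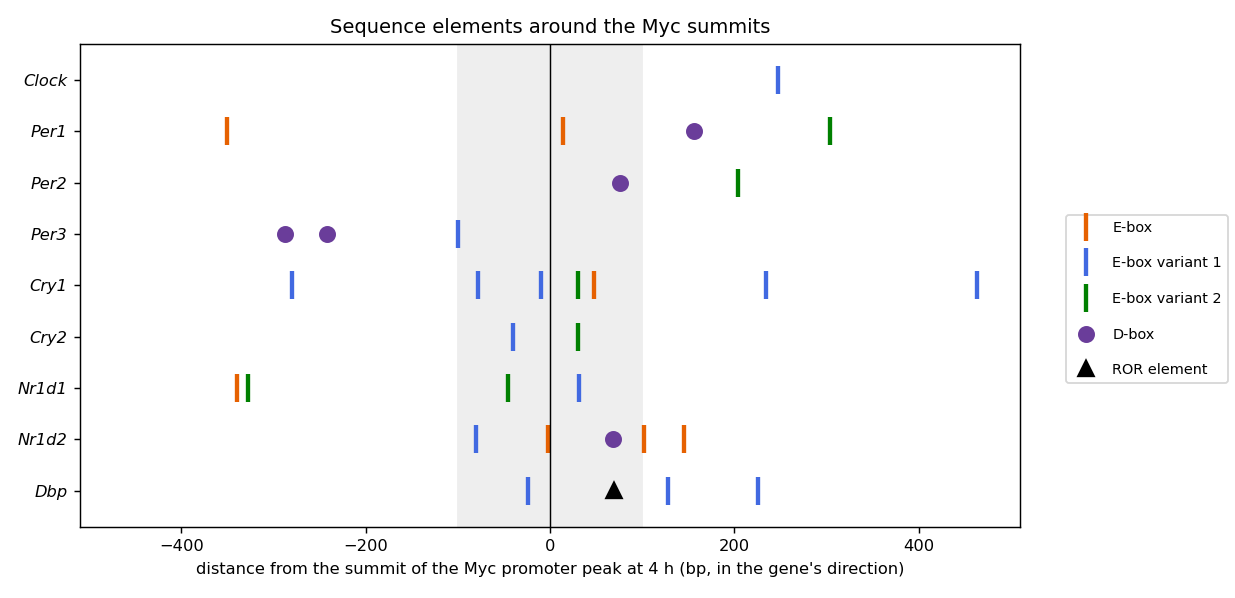
Sequence elements near the Myc summit at 4 h for the 9 members with a Myc promoter peak, by distance in bp along the gene, with the 200 bp summit window shaded. Orange marks the canonical E-box, blue and green bars its variants with 1 changed base, circles the D-box and a triangle the ROR element; Per1 at 14 bp and Nr1d2 at -2 bp sit closest to an E-box.

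Some of the members' Myc peaks held many E-boxes. The 4 h peak of Per1 held 6 in 6880 bp, a number matched or passed by 7 of the 10378 genes whose promoter carried Myc in that list, Per1 itself counted. The peak of Nr1d1 held 5 in 4905 bp, at -364, 1176, 1456, 1472 and 2292 bp from the gene's 5′ end, and 19 genes held as many or more. Nr1d2 had 3 in 2685 bp, where 342 genes (3.30%) held as many or more. Dbp had 2 in 5122 bp, where 1185 genes (11.4%) did. These peaks were also longer than the median of 2111 bp over all such genes. Clock, Per2, Per3 and Cry2 had 0, so that 5 of 9 members held an E-box in the peak (55.6%), against 39.3% of genes. Per base, the 9 members together held 0.530 E-boxes per kb and all genes together 0.238. The value was 1.12 at Nr1d2, 1.02 at Nr1d1, 0.872 at Per1, 0.390 at Dbp and 0.350 at Cry1.

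Across the promoter windows of 1000 bp either side of every TSS, CACGTG occurred in 4 of 10 members (Per1, Cry1, Nr1d1, Nr1d2), against 33.7% of all genes. CACGCG occurred in 8 of 10 members, against 36.5% of genes. CACGTT and CACGTC each occurred in 6 of 10, against 35.2% and 36.1%. The D-box, searched as TTATGTAA or TTATGCAA, was present in 5 members (Per1, Per2, Per3, Nr1d2, Dbp), against 14.7% of genes. The ROR element was present in 3 members (Arntl, Clock, Dbp), against 3.67%. Both strands were searched for each motif, a gene with several TSSs such as Per1 (5 TSSs) has more sequence to match, and a match is not a bound site. The ROR elements are shown because they mark the arm of the loop that the REV-ERB genes act on.
Arntl ROR element, chr7:120351042-120351070, plus strand: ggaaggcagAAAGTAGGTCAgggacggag
Dbp ROR element, chr7:52960238-52960302, plus strand: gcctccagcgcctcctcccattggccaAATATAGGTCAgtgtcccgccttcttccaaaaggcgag
Clock ROR element, chr5:76733017-76733081, minus strand: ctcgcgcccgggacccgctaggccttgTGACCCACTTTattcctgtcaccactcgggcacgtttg
The Dbp element lay 70 bp from the Myc summit at 4 h.

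Myc occupied nearly every promoter of the core clock before OHT and after it. A promoter counts as occupied when a peak overlaps the 1000 bp either side of a TSS by at least 1 bp. At 0 min 9 of 10 members had a Myc promoter peak, against 44.7% of all genes. The count was 10 of 10 at 10 min (46.8%), 10 of 10 at 20 min (47.9%), 9 of 10 at 30 min (46.6%), 10 of 10 at 2 h (48.9%) and 9 of 10 at 4 h (46.7%). The gene without a peak at 0 min, 30 min and 4 h was Arntl each time.

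Fold enrichment, the authors' ratio of ChIP tags to the local control at the peak, ranks genes within a list and does not measure change between lists. The REV-ERB genes and Dbp stood apart from the rest. Nr1d1 (chromosome 11, 98629246 to 98636647) had Myc folds of 58.5 at 0 min, 97.0 at 10 min, 105.4 at 20 min, 91.8 at 30 min, 94.7 at 2 h and 91.4 at 4 h. Among genes with a peak it stood above 99.2% at 0 min and 99.5% at 4 h. Dbp (chromosome 7, 52960458 to 52965525) had folds of 41.0, 90.1, 99.0, 87.0, 102.4 and 83.7 in the same order, and stood above 96.4% of genes at 0 min and 99.1% at 4 h. Nr1d2 (chromosome 14, 19036568 to 19071641) had folds of 30.5, 71.8, 91.4, 70.2, 86.9 and 64.8, above 90.8% of genes at 0 min and 96.7% at 4 h. These 3 genes were the highest members in each of the 6 lists.

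The Per and Cry repressors followed below these 3 genes, with Per1 and Per2 in the upper part of each Myc list and Per3 the lowest of the 5. Per1 (chromosome 11, 68908719 to 68923462) had folds of 22.8, 30, 40.1, 30.4, 39.2 and 31.0 over the 6 times. Per2 (chromosome 1, 93312561 to 93355907) had 21.3, 26.9, 38.2, 26.1, 42.0 and 25.1. Per3 (chromosome 4, 150377761 to 150418774) had 6.79, 15.6, 25.0, 11.0, 19.2 and 9.97. Per1 and Per2 lay above 67.4% of genes or more in each list, while Per3 lay above 9.79% at 0 min and 61.0% at 20 min, its highest standing.

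Cry1 (chromosome 10, 84594447 to 84647799) had folds of 14.1, 24.2, 31.7, 25.4, 36.8 and 21.2. Cry2 (chromosome 2, 92243803 to 92274200) had 11.1, 27.6, 37.2, 23.9, 32.9 and 19.0. Cry2 stood below the list's median of 12.9 at 0 min and above the median in each later list, with 18.3 as that median at 4 h. Clock (chromosome 5, 76639992 to 76733817), which encodes the partner of BMAL1 in the activating pair, had 11.6, 15.8, 22.2, 15.6, 19.9 and 13.9, above the list's median only at 20 min. The members' median fold was 21.3 at 0 min, 27.2 at 10 min, 37.7 at 20 min, 26.1 at 30 min, 38.0 at 2 h and 25.1 at 4 h. Over all genes with a peak it was 12.9, 18.5, 20.7, 17.6, 23.2 and 18.3.

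**Figure D2:**
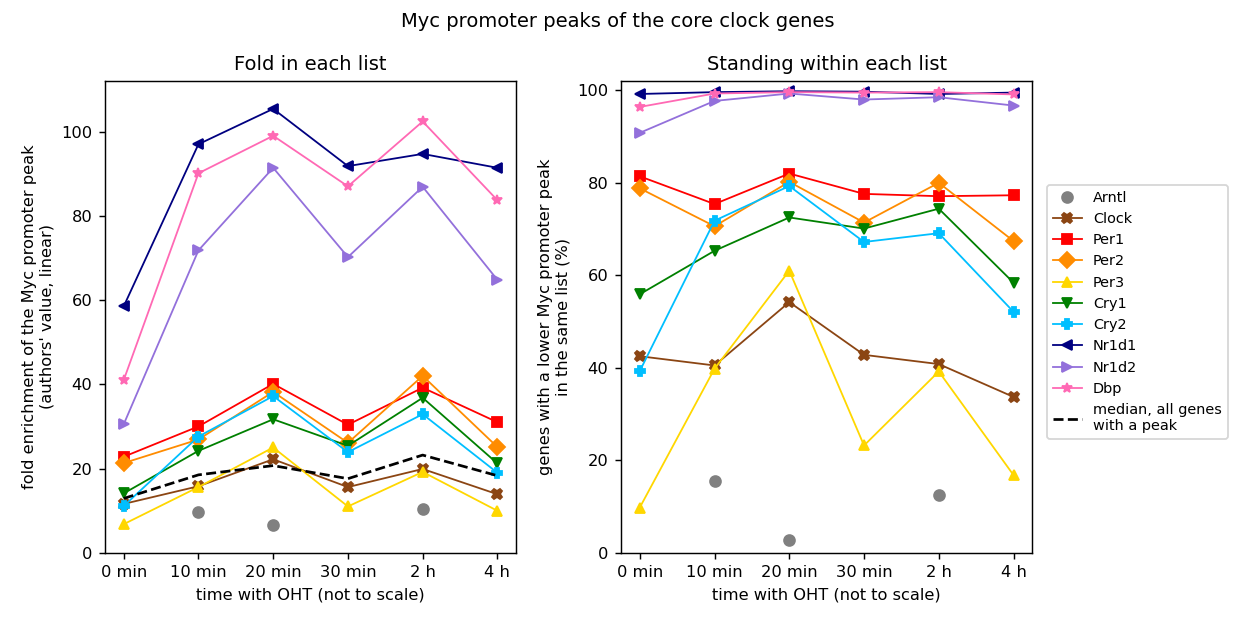
Left, the authors' fold enrichment (linear axis) of each member's strongest Myc promoter peak at the 6 times, with the median of all genes with a peak dashed. Right, the percent of genes with a lower peak in the same list; Nr1d1, Nr1d2 and Dbp lie above the other members in each list, and Arntl has points at 10 min, 20 min and 2 h only.

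Arntl (chromosome 7, 120350979 to 120457636), the gene for BMAL1, was the exception. Its promoter peak had a fold of 9.77 at 10 min, 6.66 at 20 min and 10.3 at 2 h, above 15.5%, 2.84% and 12.4% of genes in those lists. A second site inside the gene was present in all 6 Myc lists. Its summit lay in an intron, between 53121 and 53255 bp from the TSS, with folds of 14.1, 20.2, 21.2, 17.0, 31.1 and 18.3 over the 6 times. This intronic peak was stronger than the promoter peak in each list that had both. It held no CACGTG.

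RNAPII lay over the same intronic site of Arntl in all 12 RNAPII lists. The narrow summits there were at 53067 bp at 0 min, 53056 bp at 10 min, 53111 bp at 20 min, 53061 bp at 30 min, 53114 bp at 2 h and 53123 bp at 4 h. Their folds were 15.2, 11.8, 10.7, 8.00, 15.1 and 14.5. A further Myc peak lay at 34773 bp from the TSS at 10 min (5.59-fold) and at 35509 bp at 2 h (8.96-fold), with 1 CACGTG in each. Another was listed at 2 h only, with its summit at 3108 bp (5.93-fold).

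**Figure D3:**
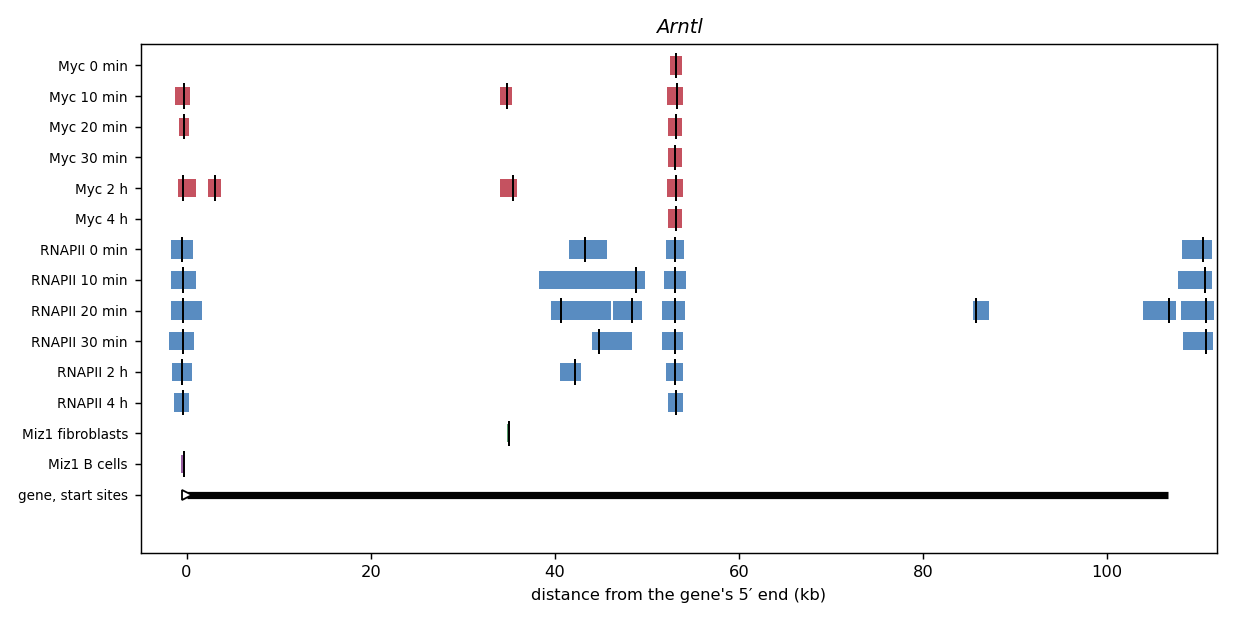
Peaks along Arntl by distance from its 5′ end in kb: Myc in red, narrow RNAPII lists in blue, Miz1 in green (fibroblasts) and purple (B cells), with summits as black ticks. The intronic site at 53 kb has a Myc and an RNAPII peak at each of the 6 times, while the promoter has Myc at 10 min, 20 min and 2 h.

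Other members had Myc peaks inside the gene, away from the promoter, that were listed after OHT and not at 0 min. Cry2 had none at 0 min and an intronic peak from 10 min on, with summits at 2674, 2556, 2698, 2579 and 2589 bp from its 5′ end and folds of 7.33, 7.89, 9.59, 12.1 and 7.43. Per3 likewise had none at 0 min and a peak far inside the gene at the 5 later times, between 38453 and 38561 bp, with folds of 7.89, 9.54, 7.06, 8.60 and 6.78. Cry2 and Per3 each had a second internal peak at 20 min and 2 h only. All of these were weaker than the promoter peak of the same gene and list. The Myc lists held 19995 peaks at 0 min and 22996 to 27388 at later times. The part of list size in these internal peaks was not tested.

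RNAPII was present at the promoters of all members at nearly all times. In the narrow lists the count was 10 of 10 at 0 min (47.5% of all genes), 10 min (47.3%), 20 min (48.4%), 30 min (46.4%) and 2 h (46.3%), and 9 of 10 at 4 h (46.8%). In the broad lists it was 9 of 10 at 0 min (44.4%), 10 of 10 at 10 min (44.9%), 20 min (46.8%) and 30 min (43.3%), and 9 of 10 at 2 h (43.8%) and 4 h (43.8%). The gene without a peak was Per2 in each case.

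The RNAPII peaks of Per2 were weak where they were listed. Their folds in the narrow lists were 9.61 at 0 min, 8.50 at 10 min, 13.8 at 20 min, 12.9 at 30 min, then 7.59 at 2 h, above 5.28% of genes with a peak at 0 min and 17.6% at 20 min. Per2 thus combined a Myc peak above most genes with an RNAPII peak below most genes. Per1 had such a split in the narrow lists, with RNAPII folds of 10.6, 18.6, 18.6, 18.3, 11.6 and 12.2, above 7.22% of genes at 0 min and 29.5% at 10 min, its highest standing in the narrow lists. In the broad list of 30 min it had a fold of 26.5, above 51.0% of genes.

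At 0 min the strongest RNAPII promoter peaks among the members were those of Arntl and Clock, the pair of activators, and not those of the genes with the strongest Myc. Arntl, with little or no promoter Myc, had narrow RNAPII folds of 40.8, 42.0, 45.3, 45.7, 28.3 and 28.6. Clock had 38.3, 30, 35.4, 38.1, 23.1 and 39.4, and Nr1d1 had 30.3, 41.9, 45.2, 47.3, 31.6 and 29.9. At 0 min Arntl stood above 71.8% of genes, Clock above 67.9% and Nr1d1 above 52.1%, while at 30 min Nr1d1 had the highest fold of the 10 members. Cry2 had folds of 14.9, 28.5, 31.4, 45.3, 21.3 and 25.9, standing above 15.9% of genes at 0 min, above 76.7% at 30 min, then above 45.5% at 4 h. Per3, below the median of each narrow list, had 22.1, 23.9, 21.9, 27.6, 22.5 and 25.3. It stood above 32.6% of genes at 0 min and 47.8% at 2 h, its highest standing in the narrow lists.

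RNAPII along the gene body was measured as cover, the share of bases in a gene that fell inside RNAPII peaks once the 5′-most 1000 bp were set aside, in percent. A difference of more than 20 points from 0 min was counted as higher or lower, and all 10 members were among the 9763 genes of at least 3000 bp with a narrow RNAPII promoter peak at 0 min. In the narrow lists Per1 and Nr1d2 had high cover at 20 and 30 min and were back near their 0 min value at 2 h and 4 h. Cry2 had it at 20 min alone, in the deepest RNAPII library. In the broad lists Per1 was higher at 20 min alone, and neither Nr1d2 nor Cry2 was higher at any time. With only the narrow peaks above the median fold of their list, Per1 was also higher at 10 min and at 2 h. Neither Nr1d2 nor Cry2 was then higher at any time.

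Per1, with the largest difference from 0 min among the members in the narrow lists, had a cover of 39.4% at 0 min, 46.5% at 10 min, 99.4% at 20 min, 97.9% at 30 min, 40.7% at 2 h and 39.6% at 4 h. Its narrow cover at 30 min stood 58.5 points above 0 min. Its broad cover was 15.8%, 22.3%, 38.7%, 26.2%, 14.7% and 3.99%, so that 30 min stood 10.5 points above 0 min, within the 20 points, and 4 h was the lowest. The part of sequencing depth in these differences was not tested. At 0 min the peak over the 5′ part ended 5838 bp from the gene's 5′ end. At 20 min a peak reached 11198 bp, and the next ran from 11286 to 16396 bp, past the gene's end at 14744 bp. At 30 min peaks also followed one another to the gene's end. The last peak at these times had its summit past the gene, at 15182 and 15154 bp, and its bases inside Per1 counted as cover. Each narrow list had a peak with its summit past the gene, 28.8-fold at 0 min. The Myc peak of Per1 ended 5794 bp from the 5′ end at 0 min and 5777 bp at 4 h, close to the end of the RNAPII peak at 0 min. These ends lie past the last annotated TSS of Per1. Its TSSs at 3731, 4935, 4941 and 5305 bp lie in the part counted as gene body.

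Nr1d2 had a narrow cover of 2.37% at 0 min, 9.87% at 10 min, 51.5% at 20 min, 38.9% at 30 min, 7.82% at 2 h and 2.36% at 4 h. Separate peaks were spread over its body at 20 and 30 min, with folds of 2.71 to 8.86 at 20 min and 4.82 to 12.5 at 30 min, the highest being a peak at the 3′ end with its summit past the gene. Cry2 had 0.500%, 1.64%, 35.2%, 8.99%, 1.03% and 0.388%. The broad cover of Nr1d2 was 0.778% at 0 min, 1.76% at 20 min and 0.942% at 30 min, and Cry2 had 0 throughout. The narrow body peaks were weak: with only the peaks above the median fold of their list, Nr1d2 stood 6.10 points above 0 min at 30 min, in place of 36.6.

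The shortest members were covered from end to end. Dbp had a narrow cover of 100.0% in all 6 lists, and Nr1d1 had 94.7% at 0 min and 100.0% at each later time, so the narrow lists could show nothing higher. The broad lists left room at Nr1d1, whose cover there was 22.5% at 0 min, 81.5% at 10 min, 99.9% at 20 min, 99.9% at 30 min, 90.3% at 2 h and 54.5% at 4 h. Its promoter peak reached 447 bp into the gene at 0 min, 7394 bp at 30 min and 3022 bp at 4 h. The broad cover of Dbp was 94.3%, 98.9%, 100.0%, 83.9%, 100.0% and 100.0%. Nr1d1 overlaps Thra, which lies on the other strand, by 1075 bp, and Dbp overlaps Sphk2 on the other strand by 689 bp. ChIP-seq does not tell strands apart, and RNAPII promoter peaks reached Thra in 7 of the 12 RNAPII lists and Sphk2 in 12.

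The long members showed little RNAPII past the promoter. Arntl, of 106658 bp, had a narrow cover of 5.78%, 13.1%, 16.6%, 6.34%, 3.90% and 1.60%. Clock, of 93826 bp, had 6.87%, 9.45%, 13.3%, 7.77%, 7.46% and 7.60%. In each narrow list a peak ran past the 3′ end of Clock, from 87785 to 102705 bp at 0 min, and into Tmem165. The summit of that peak lay in a Tmem165 intron at 30 min and 4 h and in the Clock UTR (untranslated region) at the other times. Per2 had between 0 and 6.57%, Per3 between 0.190% and 2.52%, and Cry1 between 0 and 1.84%. The highest value of Arntl, Clock, Per2 and Cry1 fell at 20 min, in the deepest library.

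**Figure D4:**
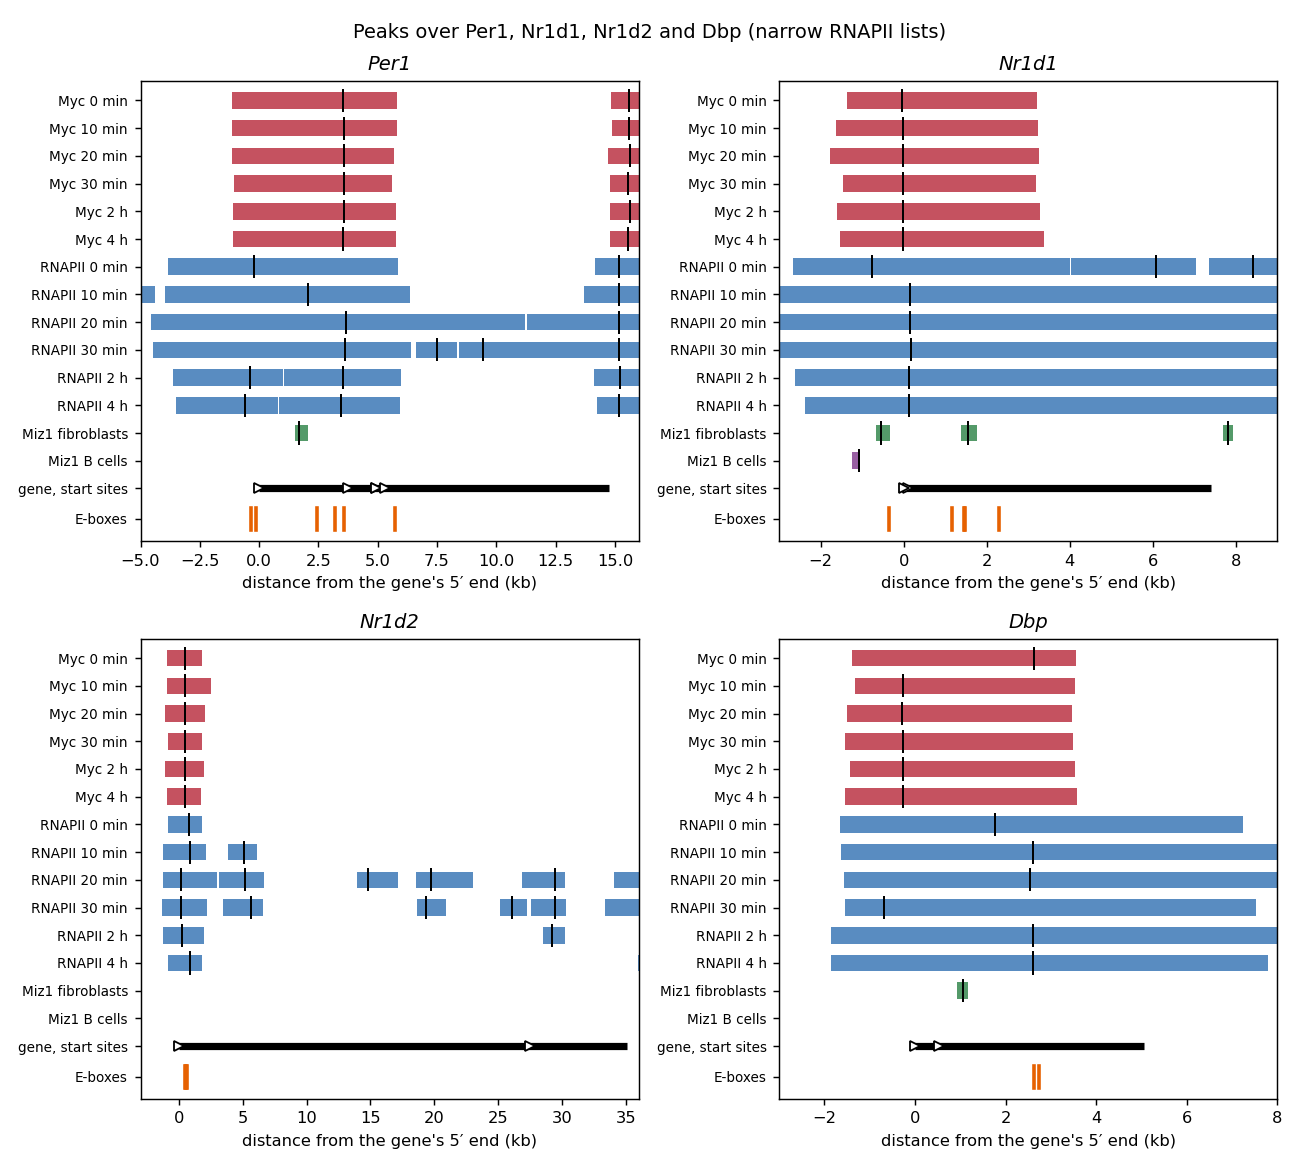
Peaks over Per1, Nr1d1, Nr1d2 and Dbp by distance from the gene's 5′ end in kb (Myc red, narrow RNAPII blue, Miz1 green and purple, summits as black ticks, annotated start sites as arrowheads, E-boxes of the Myc promoter peak in orange); peaks are clipped at the panel edges. At Per1 and Nr1d2 the RNAPII peaks extend into the gene body at 20 and 30 min, and at Dbp the Myc summit at 0 min lies on the intragenic E-boxes.

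In the narrow lists 0 members were higher by more than 20 points at 10 min, against 12.9% of the genes tested. There were 3 at 20 min (Per1, Cry2, Nr1d2), against 22.0%, and 2 at 30 min (Per1, Nr1d2), against 9.22%. There were 0 at 2 h, against 10.5%, and 0 at 4 h, against 7.32%. In the broad lists Nr1d1 was higher at all 5 later times and Per1 also at 20 min, which gives 1 of 10 at 10 min (3.78% of genes), 2 of 10 at 20 min (10.6%), 1 of 10 at 30 min (2.98%), 1 of 10 at 2 h (3.57%) and 1 of 10 at 4 h (2.30%). No member was lower by more than 20 points at any later time in either kind of list, against 8.21% of genes in the narrow and 1.61% in the broad lists. With 10 genes, the narrow count at 20 min is near the background share. Among the 900 genes with higher narrow cover at 30 min, 43.9% were no more than 20 points above 0 min at 4 h. Per1 and Nr1d2 were both in that share, which also takes in genes that fell below their 0 min value. The broad lists gave 52.6% of 291 genes, and Nr1d1, the member higher at 30 min, was not among them.

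The mean narrow cover of the members was 25.2% at 0 min, 28.8% at 10 min, 42.7% at 20 min, 36.5% at 30 min, 26.6% at 2 h and 25.2% at 4 h. Over all genes tested it was 21.6%, 27.9%, 33.0%, 24.5%, 25.7% and 22.7%. The members' mean rests on Per1, Nr1d2 and the fully covered Nr1d1 and Dbp, since their median was 4.08% at 0 min and 8.38% at 30 min, against 4.82% and 5.87% for all genes.

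**Figure D5:**
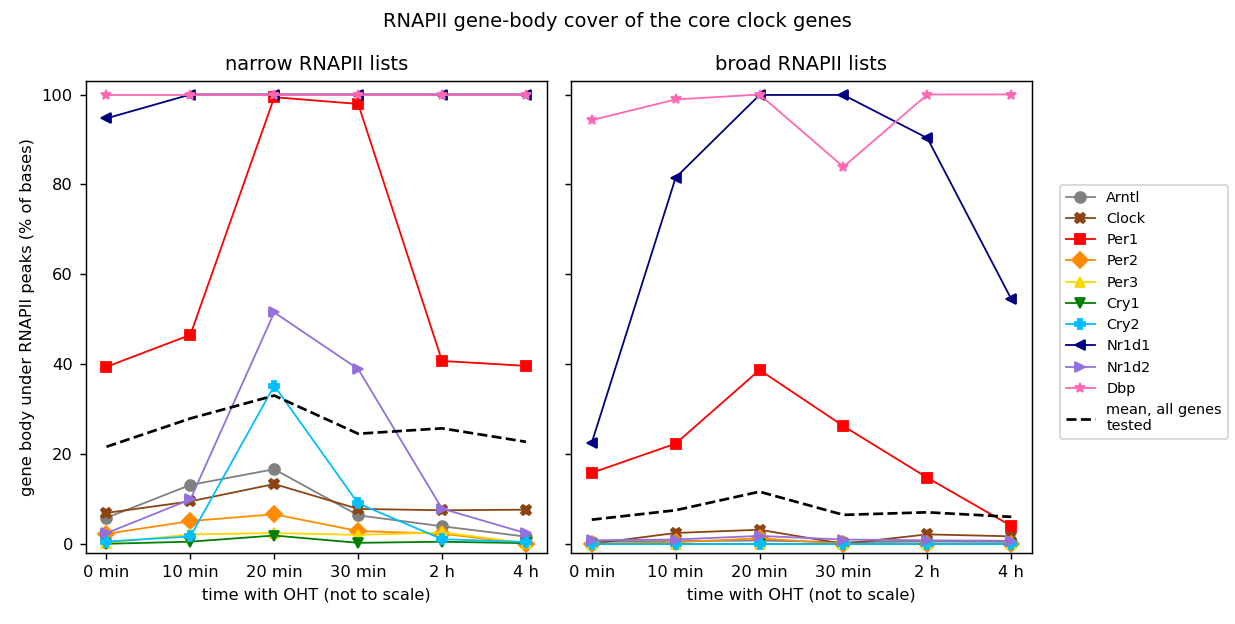
Percent of each member's gene body under RNAPII peaks at the 6 times, in the narrow lists (left) and the broad lists (right), with the mean of all genes tested dashed. On the left Per1 goes from 39.4% at 0 min to 97.9% at 30 min, then to 39.6% at 4 h; on the right Nr1d1 goes from 22.5% to 99.9%, then to 54.5%.

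Over the 12 RNAPII lists, the gene whose cover was most like that of each member was found by the smallest mean absolute difference. For Per1 it was Bahcc1, 8.30 points apart on average, with a narrow cover of 45.1%, 72.1%, 97.1%, 90.6%, 77.1% and 39.5% over the 6 times. Bahcc1 was thus still high at 2 h, where Per1 had 40.7%. For Nr1d2 it was Gfod1 at 2.31 points, for Nr1d1 Nip7 at 2.11 points and for Cry2 Il17rc at 1.02 points. Il17rc had the same single high value, 34.9% at 20 min, in the narrow lists. For the members with low or full cover, the nearest gene was less than 1 point away, from 0.0530 points for Klhdc10 with Cry1 to 0.951 points for Osbpl9 with Clock.

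Miz1 lay at 3 of the 10 promoters in fibroblasts (Per2, Nr1d1, Dbp), against 8.25% of all genes, and at 1 of 10 in B cells (Arntl), against 5.48%. Per2 had a Miz1 peak of 11.2-fold, with its summit at 875 bp from the TSS in an intron, above 74.5% of genes with a Miz1 promoter peak. Nr1d1 had a peak of 5.96-fold upstream of the gene at -548 bp, and Dbp one of 5.96-fold at 1061 bp from the gene's 5′ end. Both were low, with a pileup of 8.0 at the summit, and are lost when the fibroblast list is held to the p cutoff of 1e-05 used for B cells, which leaves Per2. The fibroblast list was called at a p cutoff of 1e-02, on fewer tags than the B cell list, so the counts of the 2 cell types cannot be set against each other.

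The strongest Miz1 peak of a member lay inside Nr1d1, in an intron, with a fold of 13.4. Its summit was 1547 bp from the gene's 5′ end and 76 bp from the nearer of the E-box pair printed above. Per1 also had an intronic Miz1 peak, of 9.08-fold at 1689 bp, 770 bp from the nearest E-box. All 3 members with a Miz1 promoter peak in fibroblasts had it overlapping a Myc peak at 0 min, as did 87.0% of the 1833 genes with such a peak. The internal Miz1 peaks of Nr1d1 and Per1 lay inside the Myc peak in all 6 lists, but 1570 to 1598 bp and 1858 to 1891 bp away from the Myc summit. A weak Miz1 peak in Arntl in fibroblasts (5.21-fold, 34995 bp) lay under the internal Myc peak that was listed at 10 min and 2 h. In B cells, the Miz1 peak at the Arntl promoter had a fold of 7.83 and its summit at -325 bp. That was 27 to 82 bp from the fibroblast Myc summit at the 3 times with a Myc promoter peak.

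The other clock genes were 22 kinases, ligases, nuclear receptors, output factors and relatives of the core, all found in the annotation. Of these, 16 had a Myc promoter peak at 0 min and 4 h and 16 or 17 between (44.7% to 48.9% of all genes). The highest at 4 h were Ciart, a repressor of CLOCK and BMAL1, with folds of 37.2 at 0 min and 66.7 at 4 h, Noct, a rhythmic gene of the deadenylase family, with 25.6 and 56.6, and Bhlhe41, an E-box repressor, with 16.6 and 47.7. Those without a Myc peak at 4 h were Npas2, Arntl2, Rora, Rorb, Hlf and Fbxl21, and all 6 lacked a narrow RNAPII promoter peak in all 6 lists. RNAPII marked 13 to 15 of the 22 promoters in the narrow lists (46.3% to 48.4% of all genes). Miz1 promoter peaks in fibroblasts were found at Bhlhe40, Usp2, Gsk3b and Csnk1e (8.25% of all genes), and in B cells at Gsk3b (5.48%).

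Of these other clock genes, 14 could be tested for gene-body cover. In the narrow lists 6 were higher at 10 min, 10 at 20 min, 2 at 30 min, 4 at 2 h and 2 at 4 h, and 1, 1, 1, 2 and 2 were lower. Over all genes tested, 12.9%, 22.0%, 9.22%, 10.5% and 7.32% were higher, and 8.21% were lower at 1 or more of these times. That last share is not one per time. Of the 14, those lower at 1 or more times were Csnk1d, Nfil3 and Bhlhe40, named after their values were seen. The broad lists gave 1, 4, 1, 0 and 0 higher and 0 lower over these times. Over all genes their shares higher were 3.78%, 10.6%, 2.98%, 3.57% and 2.30%, and 1.61% were lower at 1 or more times. The gene lower at 10, 20 and 30 min in the narrow lists was Csnk1d, a kinase of the PERIOD proteins, named after its values were seen. Its narrow cover was 99.2% at 0 min and 0 at those 3 times, while its broad cover was 3.97% at 0 min and 32.5% at 20 min. At this gene the narrow lists thus lacked a long peak where the broad lists of the same libraries kept peaks.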

How the data were processed

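The peak lists are as deposited. The submitters' processing notes name BWA 0.6.2-r126, MACS2 2.0.9 and the build mm9. Per the file headers, MACS 1.4.2 made the Myc and the narrow RNAPII lists and MACS 2.0.9 the others, each from 1 library against a control, at a p cutoff of 1e-08 (Miz1 1e-02 in fibroblasts, 1e-05 in B cells). The authors' values are a tag count per peak, a score of −10 times log10 p and a false discovery rate in percent (MACS 1.4.2), pileup signal and −log10 p and q (MACS 2.0.9), and a fold ratio over the control. They were used within a list only.

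Members were matched by symbol; chromosome names and lengths of NCBIM37 were checked against the lists, and peaks on chromosomes outside it (12 and 8 in the Miz1 lists) met no gene. The members, the other clock genes and the markers were chosen with earlier results of these data known. Named genes were all 10 members, and for the other clock genes the 3 of highest Myc fold at 4 h, those without Myc at 4 h and those with Miz1. The motif window was 200 bp around the summit of the highest promoter peak. Functions were tested on simulated peaks (Python 3.11.15, numpy 2.4.6). The input library itself was not analysed here.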

Additional observations from a re-analysis of the deposited data

How the results depend on the processing

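Promoter counts of Myc and RNAPII moved by less than 1.5 times with windows of 500 or 2500 bp, peaks above the median fold, equal numbers of peaks from each list, summits inside the window and, for RNAPII, the broad lists. With peaks above the median fold, Miz1 promoter counts were 1 in fibroblasts and 0 in B cells. With p at or below 1e-05 in both Miz1 lists the fibroblast count was 1, and with a window of 2500 bp the B cell count was 2. With the broad lists, members with higher gene-body cover were 1 at 10 min, 1 at 30 min, 1 at 2 h and 1 at 4 h. With peaks above the median fold they were 2 at 10 min (Per1, Nr1d1), 2 at 2 h (the same genes) and 1 at 4 h (Nr1d1). That setting gave 2 at 20 min and 2 at 30 min, again Per1 and Nr1d1. Cry2 and Nr1d2, which were higher at 20 min in the full narrow lists, were thus lost, as was Nr1d2 at 30 min. The share over all genes was not computed for that setting. Leaving out the bases of neighbouring genes, an alternative chosen after seeing the data, as was a q of 0.05 or lower for Miz1, changed no count by that much. With CACGTG or CACGCG, summits with a motif were 6 at 0 min and 6 at 4 h. No paired analysis was possible because each group has 1 library. The 20 min RNAPII library is the deepest, and 3 members had higher cover there. Cutting the lists to the same length left this count at 3. Such a cut limits how many peaks are kept, but each kept peak stays as long as it was called at full depth. It therefore cannot show the part of depth, which was not tested. Fibroblast Miz1 had fewer tags than B cell Miz1, and the part of that in its weak sites was not tested.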
